A study of Homo sapiens with 6 samples.

Results

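The prolyl isomerases of the endoplasmic reticulum (ER) and the collagen chaperone SERPINH1 are described here in human HEK293T cells. Its members were taken by gene symbol, as the rows of the deposited count table whose Ensembl identifier maps to FKBP2, FKBP7, FKBP9, FKBP10, FKBP11, FKBP14, PPIB, PPIC or SERPINH1. All 9 genes were found among the 64299 of the table, and all 9 passed the filter on low counts. The libraries are 3 of cells that had received a plasmid labelled ERbeta and 3 of cells that had received an empty vector, EV_Ctrl. HEK293T, the name in the sample labels where the series text writes HEK293, is a transformed human embryonic kidney line used widely for transfection, and both groups were transfected with 1 µg of DNA and a lipid-based reagent. What ERbeta stands for is not said in the labels; background knowledge points to a designed β-sheet protein sent into the ER lumen and not to the estrogen receptor, and its own level was not analysed here. The promoter of the plasmid, the share of cells that took it up and the time of harvest were not found in the labels. Replicates carry the numbers 1 to 3 in each group without a statement that the cultures were separate, and the spread behind the p-values may therefore be technical.

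Peptide bonds that precede proline exist in cis and trans forms, and their slow interconversion limits the folding of many proteins. Prolyl isomerases speed this step. Those of the ER belong to the FKBPs, the family that binds the drug FK506, and to the cyclophilins, which bind cyclosporin. Collagen, with its many prolines, is their best-known client, and SERPINH1 (HSP47) holds the collagen triple helix until it leaves for the Golgi. Loss of PPIB, FKBP10 or SERPINH1 causes brittle bone disease in people, and loss of FKBP14 a form of Ehlers-Danlos syndrome.

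Library totals ran from 13149304 to 16531368 counts for ERbeta and from 6833442 to 27101644 for EV_Ctrl, of which the 9 genes together held 10676 to 13905 in ERbeta and 6128 to 22354 in EV_Ctrl. All 8 markers listed for HEK293 cells passed the filter, with a summed level of 1671 to 1811 CPM in ERbeta and 1648 to 1762 CPM in EV_Ctrl (CPM, counts per 1e6 counts of the library after TMM normalisation). None of the 4 leukocyte, 3 liver and 3 endothelial markers passed. Of 6 fibroblast markers 3 did, with a summed level of 18.5 to 25.2 CPM in ERbeta and 23.2 to 34.6 CPM in EV_Ctrl, and COL1A2 had 0 reads in all libraries. EV_Ctrl 2 stood apart from the other controls. On the first principal component of log2 CPM ERbeta 1 and 2 were at -16.3 and -13.9, with ERbeta 3 away from them at -42.1. EV_Ctrl 2 was at -13.9, beside ERbeta 1 and 2, whereas EV_Ctrl 1 and 3 were at 44.7 and 41.5. The slope of log2 CPM against transcript GC content followed the same split, at -0.0351, -0.0291 and -0.0572 per percent GC in ERbeta 1, 2 and 3 and at -0.00368, -0.0328 and -0.00743 in EV_Ctrl 1, 2 and 3.

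As a group the 9 genes did not move one way. Their log2 fold changes of ERbeta over EV_Ctrl were positive for 5 and negative for 4, or for 6 and 3 with a correction for GC content and for 3 and 6 with library size as the only scaling. The median was 0.08, against -0.01 over all 16243 genes tested, of which 48.3% were positive. With the GC correction 59.9% of all genes were positive, and with library size only the median of all genes was -0.10. The ER chaperone HSPA5 (BiP), the main Hsp70 of the ER lumen, had a log2 fold change of 0.75 ± 0.08 (SE, edgeR) in the same libraries. Over all genes 0 of the 9 passed edgeR's quasi-likelihood test at an adjusted p of 0.05, where the background was 0%. At an unadjusted p under 0.05 PPIB was higher (background 9.54%) and FKBP9 lower (background 2.88%); DESeq2 called 0 of the 9 after adjustment, where it called 0.438% of all genes. The groups did not overlap for PPIB and FKBP7, both higher (background 10.2%), nor for FKBP9, lower (background 8.48%). Of the 9 genes 2 were thus apart upwards and 1 downwards. In RNA of whole cultures a small change in all cells and a large one in the transfected cells cannot be told apart.

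**Figure D1:**
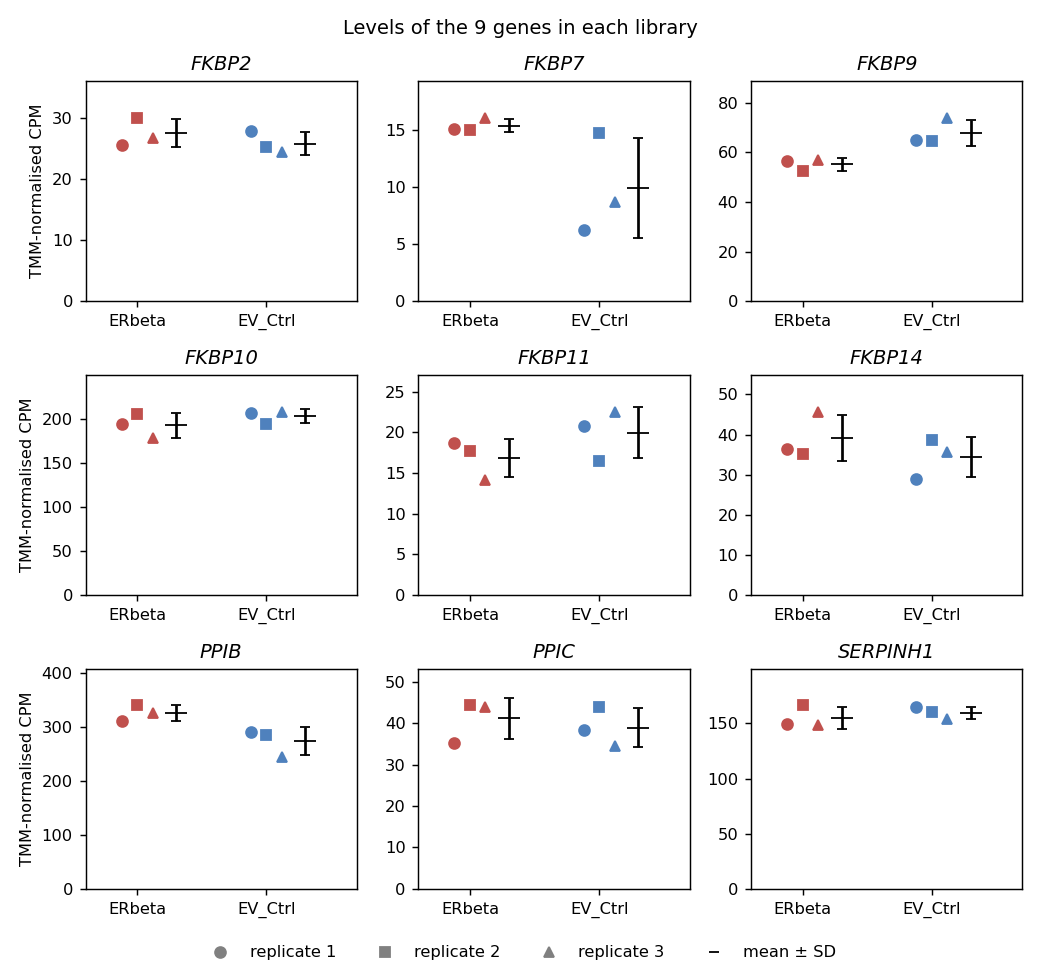
TMM-normalised CPM of each of the 9 genes (y axis, linear, from 0) in the 3 ERbeta libraries (left, red) and the 3 EV_Ctrl libraries (right, blue), where marker shapes give the replicate number and black bars the mean ± SD (n = 3 each). The groups are apart for PPIB, FKBP9 and, narrowly, FKBP7, where EV_Ctrl 2 at 14.7 CPM lies just under the lowest ERbeta library at 14.98 CPM.

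Levels per length of the coding transcript spread over a wide range. PPIB was highest at 301 ± 13.2 RPKM in ERbeta and 253 ± 23.8 RPKM in EV_Ctrl (SD, n = 3 each). FKBP10 followed at 72.2 ± 5.21 RPKM in ERbeta and 76.2 ± 2.98 RPKM in EV_Ctrl, and SERPINH1 at 45.6 ± 2.96 RPKM in ERbeta and 47.1 ± 1.58 RPKM in EV_Ctrl. Each of these 3 was apart from its neighbours in the order in all libraries of a group. PPIC, at 29.8 ± 3.65 RPKM in ERbeta and 28.2 ± 3.41 RPKM in EV_Ctrl, and FKBP2, at 27.4 ± 2.27 RPKM in ERbeta and 25.8 ± 1.81 RPKM in EV_Ctrl, overlapped. So did FKBP11, at 16.0 ± 2.23 RPKM in ERbeta and 19.0 ± 2.97 RPKM in EV_Ctrl, and FKBP9, at 15.3 ± 0.71 RPKM in ERbeta and 18.7 ± 1.46 RPKM in EV_Ctrl. FKBP14 at 7.88 ± 1.17 RPKM in ERbeta and 6.94 ± 1.01 RPKM in EV_Ctrl and FKBP7 at 5.42 ± 0.21 RPKM in ERbeta and 3.49 ± 1.54 RPKM in EV_Ctrl were lowest and were apart from each other within both groups. The order of the 9 mean levels was the same in ERbeta and EV_Ctrl. Transcript lengths are those of GENCODE 29, which may differ from the annotation behind the counts.

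Promoters of PPIB and FKBP9, the pair with unadjusted p-values under 0.05 in opposite directions, are shown beside those of SERPINH1 and of HSPA5. HSPA5 is an ER chaperone with all 3 ERbeta libraries above all EV_Ctrl libraries, as for 7 of the 9 ER chaperones listed (background 10.2%). Each window spans a RefSeq start site on GRCh38.p14 and is printed 5′ to 3′ on the gene's strand. They are chr15:64162973-64163272 (minus strand), chr7:32957190-32957489 (plus), chr11:75562003-75562302 (plus) and chr9:125241294-125241593 (minus). Capitals mark the matches of the motifs named after the sequences.
PPIB: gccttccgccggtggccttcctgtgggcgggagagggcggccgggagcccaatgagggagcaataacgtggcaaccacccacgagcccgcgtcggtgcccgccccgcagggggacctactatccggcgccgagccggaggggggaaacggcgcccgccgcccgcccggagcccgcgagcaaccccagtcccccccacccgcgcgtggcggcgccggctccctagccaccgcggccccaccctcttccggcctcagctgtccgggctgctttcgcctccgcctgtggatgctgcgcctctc
FKBP9: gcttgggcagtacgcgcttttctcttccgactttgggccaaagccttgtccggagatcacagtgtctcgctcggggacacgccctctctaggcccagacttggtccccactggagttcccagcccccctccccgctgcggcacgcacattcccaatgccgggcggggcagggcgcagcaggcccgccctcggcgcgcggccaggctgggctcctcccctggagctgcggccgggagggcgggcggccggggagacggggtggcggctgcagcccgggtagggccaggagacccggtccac
SERPINH1: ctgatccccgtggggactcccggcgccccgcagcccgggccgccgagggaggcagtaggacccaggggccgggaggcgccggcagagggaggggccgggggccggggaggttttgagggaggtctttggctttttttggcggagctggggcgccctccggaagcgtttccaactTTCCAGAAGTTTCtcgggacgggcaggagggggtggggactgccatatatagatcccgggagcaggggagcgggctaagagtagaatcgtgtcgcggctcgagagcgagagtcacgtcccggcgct
HSPA5: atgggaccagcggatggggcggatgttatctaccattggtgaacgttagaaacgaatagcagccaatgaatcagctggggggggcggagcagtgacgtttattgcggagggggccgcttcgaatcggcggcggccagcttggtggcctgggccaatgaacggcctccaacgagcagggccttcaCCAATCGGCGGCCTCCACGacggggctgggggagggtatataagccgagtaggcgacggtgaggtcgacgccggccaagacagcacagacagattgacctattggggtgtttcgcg
RefSeq windows were found for 7 of the 9 genes, 13 in all, with none for FKBP10 and FKBP14. The ER stress element (ERSE, CCAAT and CCACG with 9 bases between them), through which ATF6 raises ER chaperones, is in 0.0769% of 35116 promoter windows on either strand. HSPA5 holds an exact match, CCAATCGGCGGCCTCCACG, that begins 66 bases before the start site, and no window of these 7 genes does, nor with 1 mismatch allowed in its fixed letters (1.55% of all windows). ERSE-II (ATTGG and CCACG with 1 base between them, 0.0541%), the XBP1 site UPRE (TGACGTGG, 0.729%) and the ATF4 site CARE (TGATGNAA, 3.62%) were likewise not matched in the windows of these genes. The heat shock element (HSE, the units GAA, TTC and GAA with 2 bases between each, 0.49%), the site of the heat shock factor HSF1, was matched in SERPINH1 alone, as TTCCAGAAGTTTC on the opposite strand, in 1 of its 2 windows, beginning 76 bases before the start site. ERSE, ERSE-II and, on its other strand, UPRE share the letters CCACG. Matches in the other ER chaperones listed were not looked up, so HSPA5 does not stand for them. A match describes letters in a window and shows neither binding nor its absence.

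PPIB encodes cyclophilin B, an abundant ER cyclophilin that also sits in a complex with P3H1 and CRTAP, which hydroxylates prolines of collagen. It had 311, 340 and 326 CPM in ERbeta 1, 2 and 3, against 291, 285 and 243 CPM in EV_Ctrl 1, 2 and 3. All ERbeta libraries were above all EV_Ctrl libraries, with the narrowest gap between ERbeta 1 and EV_Ctrl 1. The log2 fold change was 0.25 ± 0.10 (SE), with a 95% interval of 0.01 to 0.50 and an unadjusted p of 0.0409, which did not pass edgeR's quasi-likelihood test over all genes (adjusted p 0.397). PPIB lies on chromosome 15 (64155812 to 64163205, minus strand) and shares 519 bases, or 27.2%, of its annotated exons with SNX22 on the other strand. SNX22 itself had 119 to 195 reads in ERbeta and 132 to 371 in EV_Ctrl, while PPIB had 4068 to 5215 in ERbeta and 2097 to 7560 in EV_Ctrl. Since the strand setting of the counting is not given, reads in the shared stretch are uncertain.

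The partners of PPIB in the hydroxylase complex had negative log2 fold changes without GC correction. CRTAP, the helper subunit, had 131, 150 and 147 CPM in ERbeta, against 161, 152 and 152 CPM in EV_Ctrl. Its log2 fold change was -0.12 ± 0.10 (edgeR, adjusted p 0.595), with groups just apart, lower in ERbeta (background 8.48%). P3H1, the enzyme, had 52.9, 54.9 and 46.4 CPM in ERbeta, against 58.5, 52.0 and 60.0 CPM in EV_Ctrl, a log2 fold change of -0.14 ± 0.12 (adjusted p 0.595), and its groups overlapped. The ratio of PPIB to CRTAP reads per library was 2.37, 2.26 and 2.23 in ERbeta, against 1.81, 1.87 and 1.60 in EV_Ctrl, so that the groups were apart in this ratio. Its ratio to P3H1 was 5.88, 6.19 and 7.04 in ERbeta, against 4.97, 5.48 and 4.06 in EV_Ctrl. These partners and ratios were chosen after their values were seen and carry no test. PPIB was itself apart, so the ratios are not a separate result. CRTAP has a GC content of 49.6%, P3H1 one of 57.5% and PPIB one of 58.2%. With GC correction the log2 fold change was -0.01 ± 0.10 for CRTAP and 0.03 ± 0.09 for P3H1, so neither partner was clearly lower.

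PPIC, cyclophilin C, a less abundant cyclophilin of the secretory pathway, had 35.3, 44.3 and 43.8 CPM in ERbeta, against 38.2, 43.9 and 34.6 CPM in EV_Ctrl. The groups overlapped. Its log2 fold change was 0.08 ± 0.14, with a 95% interval of -0.26 to 0.41 and an adjusted p of 0.819 in edgeR's test, and without EV_Ctrl 3 it was -0.003. PPIC lies on chromosome 5 (123023250 to 123036741, minus strand), and SNX24 on the other strand covers 117 bases of its exons. SNX24 had 306 to 400 reads in ERbeta and 150 to 573 in EV_Ctrl, while PPIC had 546 to 680 in ERbeta and 276 to 1165 in EV_Ctrl.

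Among the FKBPs with a single isomerase domain and no calcium-binding motif, FKBP2 is a small lumenal enzyme and FKBP11 is anchored in the membrane and abundant in secretory tissues. FKBP2 had 25.6, 30.0 and 26.8 CPM in ERbeta, against 27.8, 25.2 and 24.4 CPM in EV_Ctrl, a log2 fold change of 0.09 ± 0.12 (95% interval -0.18 to 0.37, edgeR adjusted p 0.731). FKBP11 had 18.7, 17.7 and 14.2 CPM in ERbeta, against 20.8, 16.5 and 22.6 CPM in EV_Ctrl, a log2 fold change of -0.23 ± 0.17 (interval -0.62 to 0.16, adjusted p 0.547). Groups overlapped for both, and EV_Ctrl 2 lay inside the ERbeta range for FKBP11. FKBP2 is on chromosome 11 (64241003 to 64244132, plus strand) and FKBP11 on chromosome 12 (48921518 to 48926474, minus strand), where a single retained-intron transcript of 4957 bases spans the whole gene, so the coding transcript of 1052 bases was used for its length and GC content.

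FKBP7, which binds BiP in mouse, and FKBP14, which acts on several collagen types, each join an isomerase domain to calcium-binding EF-hands. FKBP7 had 15.1, 14.98 and 16.0 CPM in ERbeta, against 6.23, 14.7 and 8.71 CPM in EV_Ctrl. The ERbeta libraries lay close together, and of the controls EV_Ctrl 2 was near them while the others were well below. The log2 fold change, 0.58 ± 0.27, was the highest of the 9, with a 95% interval of -0.06 to 1.22 and an adjusted p of 0.406 in edgeR's test. It rested on which control was used: without EV_Ctrl 2 it was 1.02, with an adjusted p of 0.0029 (background 13.5% of genes called higher and 0.775% lower without that library), without EV_Ctrl 1 it was 0.37, and with EV_Ctrl 2 as the only control it was 0.07. FKBP7 had 244, 230 and 200 reads in ERbeta, against 45, 390 and 100 reads in EV_Ctrl 1, 2 and 3, and the 45 reads have an exact Poisson 95% interval of 32.8 to 60.2, which covers counting error only. FKBP7 lies on chromosome 2 (178463664 to 178478600, minus strand).

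FKBP14 had 36.5, 35.0 and 45.7 CPM in ERbeta, against 28.96, 38.7 and 35.6 CPM in EV_Ctrl. ERbeta 3 was highest and EV_Ctrl 1 lowest, and the other libraries were mixed. Its log2 fold change was 0.18 ± 0.16, with an interval of -0.19 to 0.54 and an adjusted p of 0.626 (edgeR). It lies on chromosome 7 (30010587 to 30026684, minus strand), 2.93 Mb from FKBP9, and an antisense gene that covers 373 bases of its exons had 0 to 2 reads per library.

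FKBP9 and FKBP10 carry several isomerase domains and EF-hands. FKBP10 binds collagen and works with SERPINH1 and with the lysyl hydroxylase PLOD2. FKBP9 had 56.4, 52.3 and 57.0 CPM in ERbeta, against 65.1, 64.4 and 73.9 CPM in EV_Ctrl. All ERbeta libraries were below all EV_Ctrl libraries, EV_Ctrl 2 among them. The log2 fold change was -0.30 ± 0.11, with a 95% interval of -0.55 to -0.05 and an unadjusted p of 0.0264, which did not pass over all genes (edgeR adjusted p 0.397). FKBP9 is on chromosome 7 (32957404 to 33006931, plus strand), and its pseudogene FKBP9P1 holds 1371 of the 3572 runs of 50 bases in the FKBP9 transcript. Reads from such runs cannot be assigned to one of the copies; FKBP9P1 had 5 to 11 reads in ERbeta and 4 to 24 in EV_Ctrl, while FKBP9 had 711 to 913 in ERbeta and 470 to 1709 in EV_Ctrl.

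FKBP10 had 194, 205 and 178 CPM in ERbeta, against 207, 194 and 208 CPM in EV_Ctrl, and SERPINH1 had 149, 166 and 149 CPM in ERbeta, against 164, 161 and 154 CPM in EV_Ctrl. Both overlapped between groups. The log2 fold change was -0.08 ± 0.10 for FKBP10 (95% interval -0.30 to 0.15, edgeR adjusted p 0.731) and -0.04 ± 0.10 for SERPINH1 (interval -0.27 to 0.18, adjusted p 0.847). On the fold scale the interval for SERPINH1 ran from 0.831 to 1.13 and that for FKBP10 from 0.81 to 1.11 in the test without GC correction. With it, the log2 interval ran from -0.10 to 0.37 for SERPINH1 and from -0.09 to 0.31 for FKBP10. FKBP10 is on chromosome 17 (41812680 to 41823217, plus strand) and SERPINH1 on chromosome 11 (75562056 to 75572783, plus strand). The ratio of FKBP10 to SERPINH1 reads was 1.30, 1.23 and 1.19 in ERbeta, against 1.26, 1.21 and 1.35 in EV_Ctrl, with overlap. That of PPIB to SERPINH1 was 2.09, 2.04 and 2.19 in ERbeta, against 1.77, 1.78 and 1.58 in EV_Ctrl, without overlap. PPIB was itself apart, so this ratio is not a separate result, and it carries no test. The ratio of PPIB to PPIC overlapped, at 8.81, 7.67 and 7.45 in ERbeta, against 7.60, 6.49 and 7.04 in EV_Ctrl.

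The summed level of the 9 genes was 842, 906 and 857 CPM in ERbeta 1, 2 and 3, against 849, 843 and 805 CPM in EV_Ctrl 1, 2 and 3, and the groups overlapped. Within that sum PPIB took 37.0%, 37.5% and 38.1% of the CPM in ERbeta, against 34.2%, 33.8% and 30.2% in EV_Ctrl. FKBP9 took 6.70%, 5.77% and 6.66% in ERbeta, against 7.67%, 7.65% and 9.18% in EV_Ctrl. SERPINH1 took 17.7%, 18.4% and 17.4% in ERbeta, against 19.4%, 19.1% and 19.1% in EV_Ctrl. The groups were apart in these 3 shares and overlapped in the shares of the other 6 genes. For PPIB and FKBP9 the shares restate levels that were already apart. The level of SERPINH1 itself overlapped between groups, and its share depends on that of PPIB, the largest part of the sum. The share of SERPINH1 is therefore not a separate result. The GC correction was not applied to the shares.

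FKBP7 and FKBP14 have the lowest GC content of the set, 37.2% and 38.8% of the coding transcript, and FKBP2 the highest, 63.8%. For FKBP7 and FKBP14 EV_Ctrl 1 was the lowest library, and EV_Ctrl 2 was the highest control. A correction for GC content was fitted per library as a smooth curve of log2 CPM on GC content and entered as an offset. The slope on GC content set ERbeta 1, 2 and 3 and EV_Ctrl 2 apart from EV_Ctrl 1 and 3, and its part in the results was not tested.

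**Figure D2:**
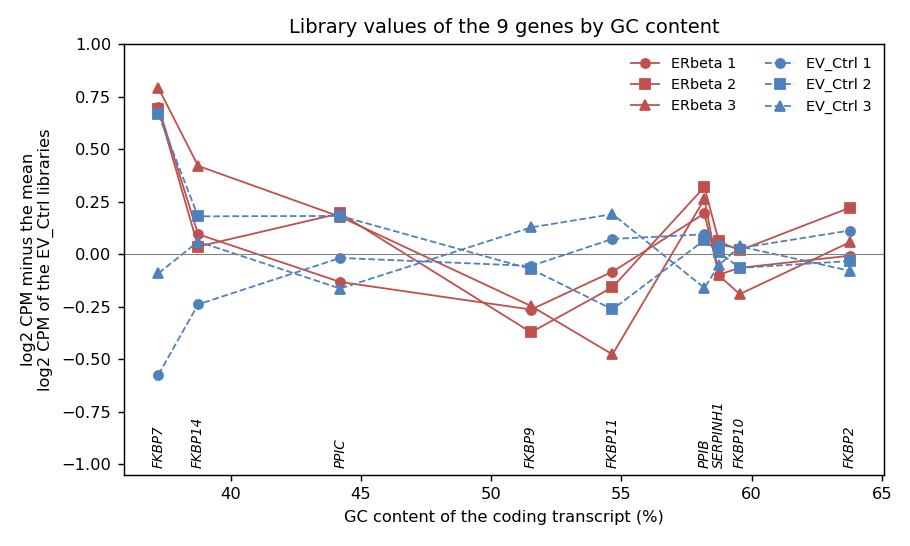
Level of each gene in each library relative to the controls (y axis, log2 CPM minus the mean log2 CPM of the 3 EV_Ctrl libraries) against the GC content of its coding transcript (x axis, percent), where red lines join the values of one ERbeta library and dashed blue lines those of one EV_Ctrl library. At the GC-poor end, FKBP7 at 37.2%, EV_Ctrl 2 sits with the ERbeta libraries, while for FKBP9 at 51.5% the ERbeta libraries lie below all controls.

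With the GC correction PPIB was at a log2 fold change of 0.43 ± 0.13, with an interval of 0.14 to 0.72, an unadjusted p of 0.00831 and an adjusted p of 0.384 in edgeR's test. FKBP2 was at 0.34 ± 0.12 (interval 0.06 to 0.62, unadjusted p 0.0228, adjusted p 0.44). Its corrected levels were 26.8, 29.1 and 34.3 CPM in ERbeta, against 23.9, 25.5 and 21.6 CPM in EV_Ctrl, and did not overlap. PPIB and FKBP2 were the 2 of 9 genes at an unadjusted p under 0.05 after correction, where the background was 8.25% higher and 2.55% lower. FKBP7 was at 0.14 ± 0.16, with overlapping groups, and FKBP9 at -0.16 ± 0.10, also overlapping, with ERbeta 3 at 61.3 CPM above EV_Ctrl 1 at 59.4 CPM. FKBP14 changed sign, to -0.23 ± 0.11, with all ERbeta libraries at 33.1 to 34.7 CPM below the 35.7 to 45.2 CPM of EV_Ctrl; the backgrounds for corrected groups that do not overlap were 12.3% higher and 4.7% lower. FKBP10 and SERPINH1 changed sign as well, to 0.11 ± 0.09 and 0.14 ± 0.11, and did not pass. None of the 9 passed over all genes in the corrected test with all 6 libraries. With correction and without EV_Ctrl 2, an alternative added after the data were seen, PPIB passed at 0.55 with an adjusted p of 0.00936, where 9.18% of genes were called higher and 2.07% lower.

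**Figure D3:**
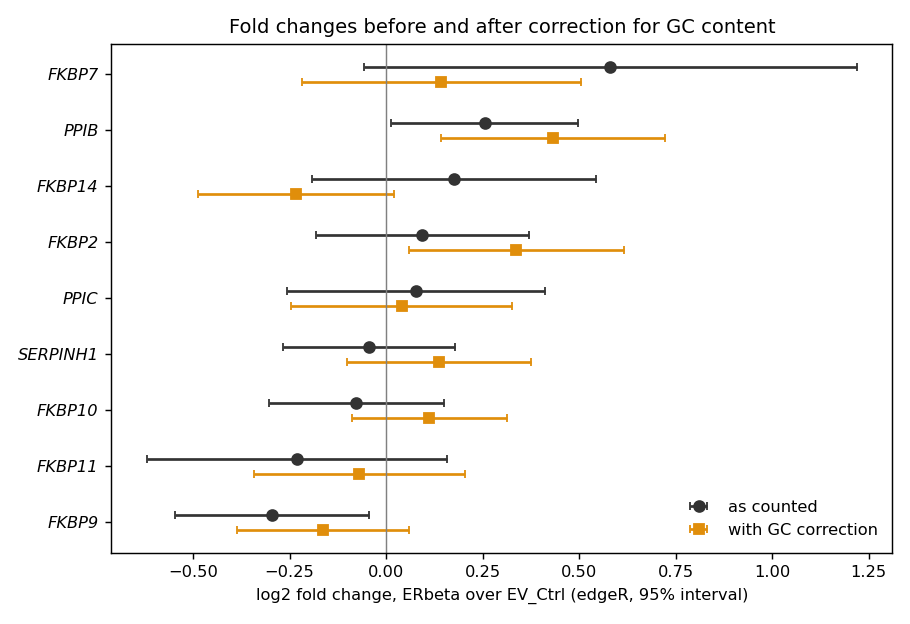
Log2 fold change of ERbeta over EV_Ctrl (x axis) for each of the 9 genes, from edgeR with 3 libraries per group, as counted (circles) and with the GC correction (squares), with 95% intervals as bars. PPIB stays on the positive side under both, at 0.25 and 0.43, FKBP9 on the negative side, at -0.30 and -0.16, and FKBP14, FKBP10 and SERPINH1 cross 0.

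The authors' deposited table gave the 9 genes the same signs. In the authors' deposited table the log2 fold changes ran from -0.27 for FKBP9 to 0.43 for FKBP7, with PPIB at 0.23 and SERPINH1 at -0.05. Adjusted p-values in the authors' deposited table were 0.0857 for FKBP7, 0.126 for PPIB, 0.136 for FKBP9 and 0.398 or more for the other 6 genes, where 3.78% of the genes with an adjusted p passed 0.05. The authors' deposited table has a mean above 0 for 8079 genes without a read in these 6 libraries, so it rests on counts beyond this table.

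Other genes that handle collagen in the ER were read from a list of 19, all tested. Neither edgeR's nor DESeq2's test called any over all genes (0 and 0). Of the 19, 7 were positive and 12 negative, at a median log2 fold change of -0.07, where 48.3% of all genes were positive. With GC correction 12 were positive and 7 negative with a median of 0.03, where 59.9% of all genes were positive. Without EV_Ctrl 2 edgeR called 5 of the 19 higher (background 13.5%). At an unadjusted p under 0.05 there were 5 higher (background 9.54%) and 0 lower (background 2.88%). SEC24D, a COPII coat subunit that carries collagen out of the ER, had 43.6, 44.1 and 52.4 CPM in ERbeta, against 31.2, 34.5 and 33.6 CPM in EV_Ctrl, a log2 fold change of 0.49 ± 0.12 (adjusted p 0.397) and of 0.51 after GC correction. TMEM38B, an ER potassium channel that collagen synthesis in bone depends on, was at 0.51 ± 0.16 and, after GC correction, at -0.16. P4HA1, a catalytic subunit of prolyl 4-hydroxylase, was at 0.48 ± 0.17 and, after correction, at 0.23. PLOD2, the lysyl hydroxylase partner of FKBP10, named after its values were seen, had 87.7, 85.9 and 114 CPM in ERbeta, against 37.7, 85.9 and 41.3 CPM in EV_Ctrl. EV_Ctrl 2 was close to ERbeta 2 for this gene, as it was for FKBP7.

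Collagen chains, the clients, were measured in the same libraries. Of 18 listed, 15 passed the filter, and COL1A2 and COL11A1 had 0 reads in all libraries. Each of the 15 was negative, at a median of -0.21. However, 4 were positive without ERbeta 2, 3 without ERbeta 1, 2 without EV_Ctrl 3 and 1 without EV_Ctrl 2. With EV_Ctrl 2 as the only control 2 were positive, with DESeq2's test 1 and with a replicate block 1. By edgeR and by DESeq2 0 passed, 1 was lower at an unadjusted p under 0.05 (background 2.88%), and 3 did not overlap, all lower (background 8.48%). COL5A1, a fibrillar collagen chain, had 38.5, 34.2 and 30.2 CPM in ERbeta, against 45.0, 40.7 and 53.6 CPM in EV_Ctrl, a log2 fold change of -0.44 ± 0.15 (edgeR adjusted p 0.397) and of -0.24 after GC correction. COL18A1 was at -0.34 ± 0.15, or -0.03 after correction, and COL1A1, the main chain of bone collagen, at -0.47 ± 0.24, or -0.26. After GC correction 6 of the 15 were positive and 9 negative, with a median of -0.02, against a median of 0.05 and 59.9% positive over all genes.

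Prolyl isomerases of the cytosol, nucleus and mitochondria were listed to set beside the ER enzymes. Of 26, 25 were tested, 17 were positive and 8 negative, with a median of 0.04, and 0 passed by edgeR or DESeq2. With GC correction 22 were positive and 3 negative, at a median of 0.13, where 59.9% of all genes were positive. With library size as the only scaling the counts were 11 and 14, and without EV_Ctrl 3 they were 12 and 13. Without EV_Ctrl 2 edgeR called 8 of the 25 higher (background 13.5%). At an unadjusted p under 0.05 there were 2 higher (background 9.54%) and 0 lower (background 2.88%). PPIL4, a nuclear cyclophilin with an RNA-binding domain, had 96.4, 86.8 and 105.5 CPM in ERbeta, against 33.5, 77.9 and 37.0 CPM in EV_Ctrl. It was at 0.95 ± 0.31 on the log2 scale, or 0.45 after GC correction, and without EV_Ctrl 2 it was at 1.45 (edgeR adjusted p 5.6e-05). PPWD1, a spliceosomal cyclophilin, was at 0.57 ± 0.23, or 0.29 after correction, and at 0.91 without EV_Ctrl 2 (adjusted p 0.000808). PPID, a partner of Hsp90, was at 0.25 ± 0.11, or 0.12. The abundant cytosolic enzymes PPIA and FKBP1A, named after their values were seen, were at 0.03 ± 0.15 and -0.02 ± 0.09. PPIG, a nuclear cyclophilin also named afterwards, had 138, 129 and 160 CPM in ERbeta, against 33.1, 135 and 28.0 CPM in EV_Ctrl, with EV_Ctrl 2 inside the ERbeta range, and its GC content is 34.8%.

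ER chaperones that work beside the isomerases and heat shock genes were counted for comparison. The 9 ER chaperones listed were all positive, also with library size as the only scaling, although 1 was negative without ERbeta 2. Their median log2 value was 0.37 with all 6 libraries. None passed edgeR's test (0 of 9), 7 were higher at an unadjusted p under 0.05 (background 9.54%), and DESeq2 called 2 (background 0.438%). HSPA5 had 870, 877 and 888 CPM in ERbeta, against 530, 536 and 501 CPM in EV_Ctrl, with an adjusted p of 0.13 in edgeR's test and of 0.0317 with GC correction. DNAJB11, a BiP co-chaperone, was at 0.48 ± 0.10, and at 0.58 or 0.02 after correction with the GC content of its coding transcript or of its longest transcript. HYOU1, the exchange factor of BiP, was at 0.37 ± 0.09. Without EV_Ctrl 2 edgeR called 3 of the 9 ER chaperones higher (background 13.5%). HSP90B1, the highest on the log2 scale, had 1476, 1534 and 1555 CPM in ERbeta, against 714, 1208 and 640 CPM in EV_Ctrl 1, 2 and 3. Fold changes of the 9 ER chaperones ran from 0.10 to 0.83 on the log2 scale. PPIB, FKBP14 and FKBP7 were inside that range, and FKBP2, at 0.09 ± 0.12, was at its edge. After GC correction the range was 0.22 to 0.79, with PPIB and FKBP2 inside it and FKBP7 and FKBP14 below. Of 10 heat shock genes driven by HSF1, 5 were positive and 5 negative with a median of 0.03, and 0 passed by edgeR or DESeq2, nor did any have an unadjusted p under 0.05. With GC correction 10 were positive and 0 negative, at a median of 0.20, where 59.9% of all genes were positive. Without EV_Ctrl 1 the counts were 9 and 1. HSPA1A was at -0.07 ± 0.15, near SERPINH1, and HSPH1, HSP90AA1 and HSPD1 were at 0.66 ± 0.32, 0.75 ± 0.38 and 0.38 ± 0.22. All 3 were highest among the controls in EV_Ctrl 2. Without that library they were at 1.18, 1.39 and 0.68 and passed edgeR's test (adjusted p 0.000189, 0.00015 and 0.00443), where 13.5% of genes were called higher.

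**Figure D4:**
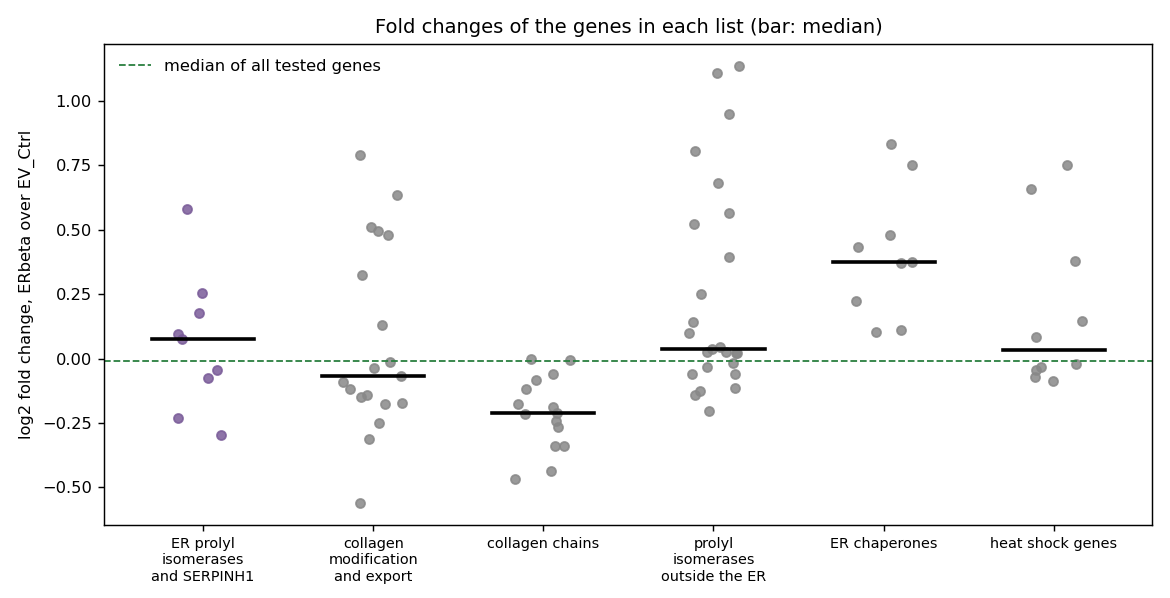
Log2 fold change of ERbeta over EV_Ctrl (y axis, edgeR, 3 libraries per group) for each tested gene of the 6 lists (x axis; horizontal scatter within a list has no meaning), where black bars are list medians and the dashed line is the median of all 16243 genes, -0.01. The ER chaperones lie above 0, the 15 collagen chains at or below it, and the 9 genes described here on both sides.

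By likeness of their level over the 6 libraries to the mean of the 9 genes, each scaled, the nearest of 9590 genes whose log2 CPM averaged 4 or more were NDUFC1, HNRNPAB, PPP1R14B, CYSTM1 and OIP5, with Pearson r of 0.989, 0.986, 0.972, 0.97 and 0.963 over 6 libraries. These values are a description: the highest of many correlations over few libraries are high by selection. All 5 had log2 fold changes of 0.02 to 0.08 and were highest in ERbeta 2. PPP1R14B is the neighbour of FKBP2 on chromosome 11 (64244480 to 64246941, minus strand), with 347 bases between them.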

How the data were processed

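RNA of 6 HEK293T libraries was sequenced from stranded poly(A) libraries, per the labels' protocols. TopHat2, featureCounts and DESeq2 with hg38 are named in the submitters' processing notes; versions, annotation and strand setting: not given in the sources used here. The deposited table holds the authors' raw read counts per gene. A second table, per the file headers, holds the authors' mean signal, log2 fold change, its standard error and statistic as scores, and p-values; it was not an input to any test. Symbols were matched by Ensembl identifier without version for 40995 of 64299 genes.

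Counts were filtered with filterByExpr (minimum count 10, minimum total 15), leaving 16243 genes, TMM-normalised and tested with edgeR 4.0.16 in R 4.3.3 (glmQLFit, glmQLFTest, group as the only term), with Benjamini-Hochberg adjustment over all genes and a threshold of 0.05. The biological coefficient of variation was 17.5%. Standard errors and 95% intervals came from the F statistic. RPKM is TMM-normalised CPM per kilobase of the longest coding transcript of GENCODE 29 (GRCh38). The GC correction was a loess curve (span 0.5) per library over 16091 genes. The steps were tested on simulated counts. No pair of libraries of a group agreed within counting noise (chi-square per degree of freedom of 4.99 or more). Replicate numbers showed no steady pairing of the libraries, which 3 libraries a group cannot exclude.

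The genes and lists were chosen with earlier results of these data known. Named were the 9 genes, the 3 genes of each other list with the smallest p, HSPA5, HSPA1A, FKBP9P1 and the 5 genes most alike in level; others are said to be named afterwards. Alternatives were DESeq2 1.42.0 (test and size factors), library size only, other filters, limma-voom (limma 3.58.1), robust estimation, a replicate block, GC correction and left-out libraries. Figures were drawn with matplotlib 3.10.9.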

Additional observations from a re-analysis of the deposited data

How the results depend on the processing

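The count of genes passing the adjusted threshold was 0 with DESeq2 size factors, with library size only, with a filter of 1 CPM, with robust estimation and with EV_Ctrl 2 as the only control. It was 51 with no filter on low counts, 71 with DESeq2's test, 1 with limma-voom, 23 with GC correction and 22 with GC correction by the longest transcript of any type. Leaving out one library in turn gave 0 to 2324, where 2324 was the fit without EV_Ctrl 2, and 1811 with GC correction in addition. Of the 9 genes none passed in these fits except 1, FKBP7, without EV_Ctrl 2, and 1, PPIB, when the GC correction was added to it. The range over left-out libraries was therefore 0 to 1. The median log2 fold change of the 9 genes was -0.014 with library size only, where the median of all genes was -0.10, 0.015 with EV_Ctrl 2 as the only control, and 0.16 with GC correction without EV_Ctrl 2; over left-out libraries it ran from -0.0034 to 0.13.

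Replicate numbers are shared by the groups, and deviations of same-numbered libraries correlated at 0.23, -0.14 and -0.15. These values show no steady pairing, but 3 libraries a group cannot exclude one. With a replicate block the median of the 9 genes was 0.08 and 0 genes passed, as without it, and with the block and GC correction 0, against 23 without the block.

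Of 171 log2 fold changes of the 9 genes under alternatives, 152 kept sign and side of the threshold, 2 passed it and 17 turned sign; for 21 other named genes it was 344, 26 and 29 of 399. FKBP7, FKBP9 and PPIB turned sign in none. With library size only FKBP2 was at -0.00037, PPIC at -0.014, NDUFC1 at -0.016, HNRNPAB at -0.071, PPP1R14B at -0.040, CYSTM1 at -0.035 and OIP5 at -0.059. With GC correction FKBP10 was at 0.11, FKBP14 at -0.23, SERPINH1 at 0.14, TMEM38B at -0.16 and HSPA1A at 0.13. With the replicate block in addition these were 0.11, -0.23, 0.14, -0.15 and 0.13, by the longest transcript 0.11, -0.22, 0.13, -0.12 and 0.13, and without EV_Ctrl 2 they were 0.16, -0.31, 0.22, -0.23 and 0.067. Against EV_Ctrl 2 alone FKBP11 was at 0.040, PPIC at -0.092, HSPH1 at -0.0066, HSP90AA1 at -0.015, HSPD1 at -0.076, HSPA1A at 0.23, NDUFC1 at -0.0050, HNRNPAB at -0.014, PPP1R14B at -0.024 and OIP5 at -0.049; that fit takes the spread of the ERbeta libraries for the lone control too. Over left-out libraries the sign turned for PPIC (-0.0034 to 0.19), HSPA1A (-0.20 to 0.0026), NDUFC1 (-0.052 to 0.15), HNRNPAB (-0.017 to 0.053), PPP1R14B (-0.033 to 0.10), CYSTM1 (-0.042 to 0.10) and OIP5 (-0.11 to 0.13). The cause of these shifts was not tested. With 3 libraries a group and a control library that stands apart, small changes of single genes could not be told from the spread.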

Other observations

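The other prolyl 3-hydroxylase family members, chosen after their values were seen, were P3H2, P3H3 and P3H4. P3H3 had 35.2, 41.5 and 31.2 CPM in ERbeta, against 46.7, 41.8 and 45.7 CPM in EV_Ctrl, and P3H4 had 55.6, 61.4 and 48.6 CPM in ERbeta, against 69.97, 61.6 and 65.75 CPM in EV_Ctrl. Both had groups that were just apart, lower in ERbeta (background 8.48%). Of the 19 listed genes that handle collagen in the ER, 5 were apart upwards (background 10.2%) and 4 downwards. Log2 fold changes were -0.31 ± 0.14 for P3H3 and -0.25 ± 0.12 for P3H4 (edgeR adjusted p 0.397 and 0.413). After GC correction P3H3 was at -0.05 and P3H4 at -0.04, with overlapping groups. P3H2 was at -0.04 ± 0.11. P4HB, also chosen after its values were seen, the abundant disulfide isomerase that is also a subunit of prolyl 4-hydroxylase, had 751, 754 and 760 CPM in ERbeta, against 712.5, 682 and 676 CPM in EV_Ctrl, at 0.13 ± 0.08 and, after GC correction, at 0.31.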
